A study of Mus musculus with 4 samples.

Results

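Chemokines are small secreted proteins that draw leukocytes along a gradient, and they act through chemokine receptors, which are G protein-coupled receptors on the cell surface. The genes described here are those whose symbol is Ccl, Cxcl, Ccr or Cxcr followed by a number only, together with Cx3cl1, Cx3cr1, Xcl1 and Xcr1. This rule found 53 genes (34 ligands and 19 receptors, in 54 rows) among 23235 gene symbols. They were measured by RNA-seq in the first 2 cm of colon after the caecum of 6-week-old mice of mixed strain, in 2 mutant and 2 control libraries. Mutants were Nkx2.2flox/flox; Villin-Cre/+, that is, 2 floxed alleles of the transcription factor gene Nkx2-2 and a Cre transgene driven by villin sequences, which act in the gut epithelium. Controls were Nkx2.2flox/+, with 1 floxed allele and no Cre given in their labels, so the loss of the gene cannot be told apart from the presence of Cre. Because Cre is limited to the epithelium, leukocytes, vessels, nerves and stroma of the mutants were not its target. Whether the 2 libraries of a genotype are from different mice is not given in the labels, and p-values reflect library-to-library spread alone.

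Chemokines are grouped by the spacing of their first conserved cysteines, as CC, CXC, CX3C and XC ligands, and receptors are named after the group they bind. In the colon some ligands are made steadily by epithelium and stroma and guide lymphocytes home or build lymphoid follicles, while others are induced by interferon or microbial products and call in T cells, monocytes, eosinophils or neutrophils. Many of the receptors are carried by leukocytes, though not all by these alone, and the cell source of a receptor transcript in whole tissue was not measured. The naming rule can be read in the coding sequence. Stretches of 45 bases from GENCODE vM1 transcripts (genome NCBIM37), 1 ligand of each group, are shown with cysteine codons in capitals.
Ccl5: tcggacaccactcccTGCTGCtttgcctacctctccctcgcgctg
Cxcl12: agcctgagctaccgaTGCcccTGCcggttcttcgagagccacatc
Cx3cl1: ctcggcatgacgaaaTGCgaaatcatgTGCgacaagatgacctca
Xcl1: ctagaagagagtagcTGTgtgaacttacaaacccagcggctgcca
The first 2 cysteine codons after the signal peptide lie side by side in Ccl5 and are 1 codon apart in Cxcl12 and 3 codons apart in Cx3cl1. In Xcl1 the next cysteine codon follows after 36 others, outside the stretch shown.

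Levels are given as FPKM, fragments scaled to transcript length and to library total, which can be compared between genes. Nkx2-2 itself, the targeted gene, had 0.125 and 0.351 FPKM in mutants 1 and 2, against 0.724 and 0.609 FPKM in controls 1 and 2, which lies under the minimum for testing. The enteroendocrine marker Tph1, the serotonin synthesis enzyme, fell to 0.875 ± 0.737 FPKM in mutants, against 17.1 ± 2.39 FPKM in controls (SD, n = 2 each; limma adjusted p = 0.0140). Of the 8 tested enteroendocrine markers, 4 were lower at a limma adjusted p under 0.05 (Tph1, Chga, Chgb and Insl5) and none was higher. By the sign of the log2 change, 5 of the 8 were negative and 3 positive. Pyy, a peptide hormone gene, was higher in both mutants, with 198 and 166 FPKM in mutants 1 and 2, against 57.2 and 96.7 FPKM in controls 1 and 2 (limma adjusted p = 0.404). Colon epithelial markers were high in every library, with Epcam between 782 and 1029 FPKM. Depth relative to control 1 was 0.464 in mutant 1, 1.03 in mutant 2 and 1.13 in control 2. Mutant 1 was thus the shallowest library, and the number of fragments implied by the authors' 95% interval is given for some of the genes where it is small. Control 1 differed from the other libraries in B lymphocyte transcripts: 12 markers of these cells summed to 23.3 and 20.2 FPKM in mutants 1 and 2, against 172 and 16.01 FPKM in controls 1 and 2. Member results that turn on control 1 are therefore given with and without that library.

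The comparison of mutant with control colon asked which chemokine and receptor transcripts differ when Nkx2-2 is removed from the epithelium. Of the 53 genes 42 had a mean of at least 0.5 FPKM and were tested, 27 ligands and 15 receptors, by limma on log2(FPKM + 0.5) with Benjamini-Hochberg adjustment over 13997 genes. None passed an adjusted p of 0.05, against 0.0643% of all tested genes (9 genes). At an unadjusted p under 0.05, 6 members were lower and 1 was higher, against 4.12% and 0.7% of all tested genes. Of the 42 members 35 had a negative log2 change, against 82.6% of all tested genes. Ccl17, Cxcl5, Ccr6 and Cxcr5 are among these 35, and fell under the minimum for testing without control 1. The 6 lower ones were Ccl5, Cxcl12, Cxcl14, Xcl1, Ccr7 and Ccl19 and the higher one was Ccl12. All of these log2 changes were smaller in size without control 1. The lower ones then ran from −0.84 for Ccl5 to −0.30 for Ccl19, and Ccl12 was at 0.42. Without control 2, 9 members passed (Ccl5, Ccl19, Cxcl13, Cxcl14, Xcl1, Ccr6, Ccr7, Cxcr4 and Cxcr5), against 2.54% of all genes, with control 1 then the only control. Ccr6 and Cxcr5 reached the minimum for testing through control 1, the library where they are high, and without these 7 members passed. None passed without control 1, mutant 1 or mutant 2, against 0.853%, 0.0575% and 0.0852% of all genes. With all libraries the smallest limma adjusted p was 0.469, for Ccl5. With 2 libraries against 2, an exact permutation test cannot go below p = 0.333, so none is given.

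Both mutant libraries lay below both controls for 17 of the 42 members (40.5%), against 35.1% of all tested genes, and above both controls for 1 member, Ccl12, against 3.39%. The FPKM of most genes were somewhat lower in the mutants as deposited, with a median log2 change of −0.17 over all tested genes and −0.32 over the members. After median ratio rescaling, which takes out that general shift, 9 of 41 members lay below and 2 above (21.95% and 4.88%), against 15.3% and 15.2% of all tested genes. Without control 1, the mutants lay below control 2 for 19 of 38 members, against 49.1% of all genes. The members' median then was −0.13, beside −0.14 for all genes. The same counts of members below were 28 of 42 without control 2 (all genes 59.2%), 18 of 43 without mutant 1 (42.6%) and 34 of 40 without mutant 2 (73.5%). Members above both controls numbered 3 without control 1 (all genes 11.6%), 3 without control 2 (10.4%), 12 without mutant 1 (21.2%) and 1 without mutant 2 (9.3%). The lower position of the members relative to other genes was thus not seen in the median without control 1. Without mutant 1 it was not seen in the count below, and was smaller in the median (−0.15, beside −0.07 for all genes). Control 1 had the highest value of the 4 libraries for 28 of the 42 members, against 45.6% of all tested genes. Ccl17, Cxcl5, Ccr6 and Cxcr5 are in this count, and each fell under the minimum for testing without control 1. They were thus tested through the library where they are highest. Mutant 1 had the lowest value for 26 of the 42 members, against 66.3% of all tested genes.

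**Figure D1:**
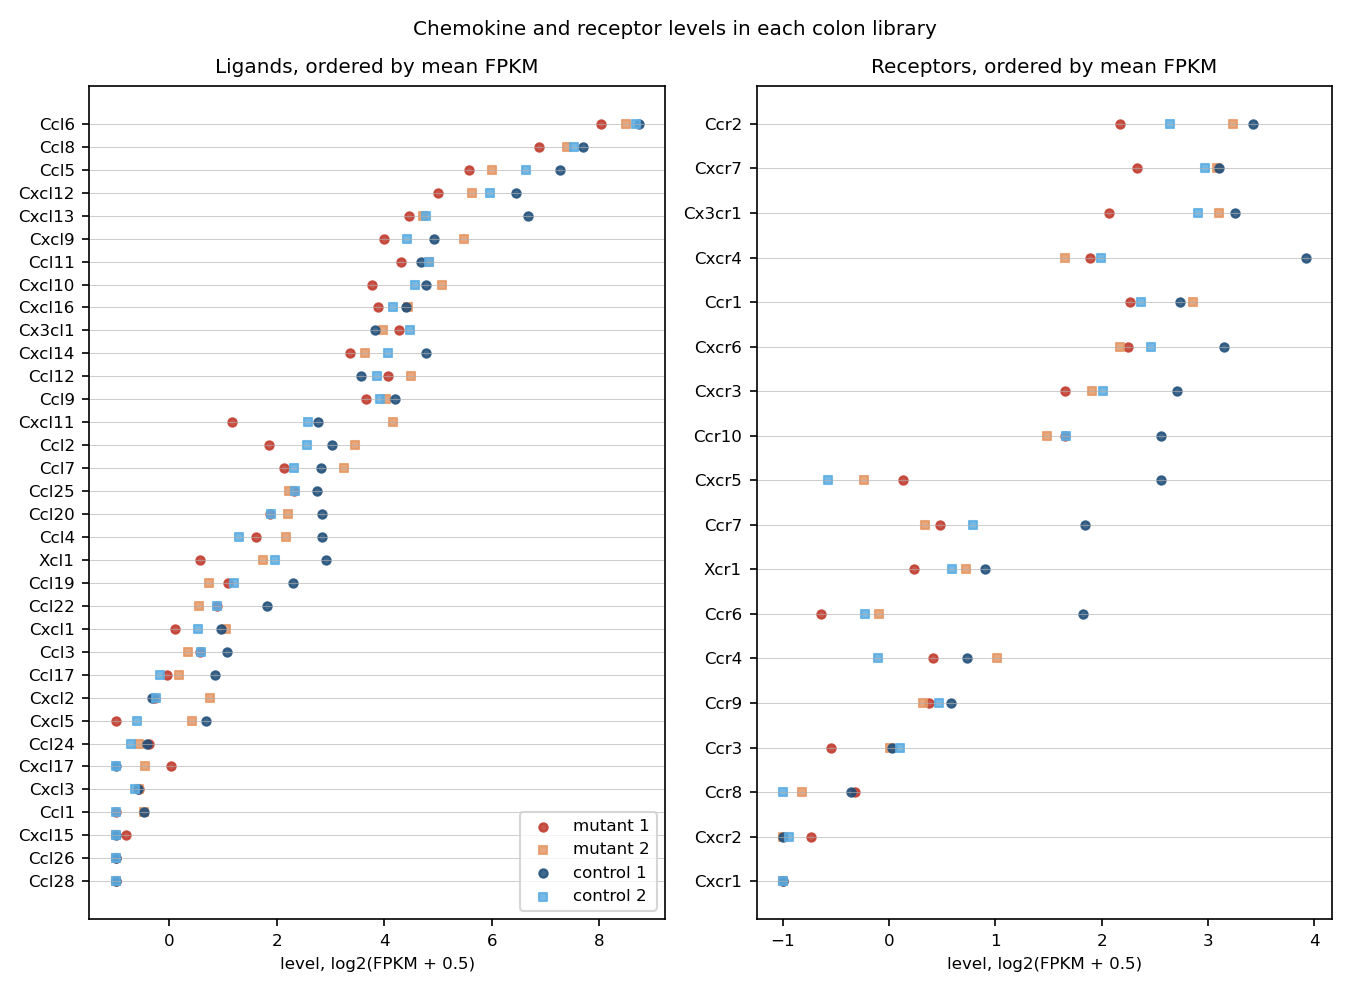
Level of the 34 ligands (left) and of the receptors (right, all but 1) in the 4 libraries, as log2(FPKM + 0.5), ordered by mean FPKM. Points at −1 are listed at 0 FPKM; control 1 is the rightmost point for most tested receptors.

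Among the CC ligands that attract monocytes, macrophages and lymphocytes, Ccl6 was the most abundant member of the whole family. Ccl6, a macrophage and myeloid cell chemokine of rodents, had 262 and 361 FPKM in mutants 1 and 2, against 424 and 411 FPKM in controls 1 and 2 (log2 change −0.44, SE 0.19). Ccl8, a monocyte chemoattractant, followed with 117 and 167 FPKM in mutants 1 and 2, against 206 and 184 FPKM in controls 1 and 2 (log2 change −0.47, SE 0.21). In both genes the mutants lay below the controls, mutant 1 the furthest, and without mutant 1 the log2 changes were −0.21 and −0.22. Ccl9, a neighbour of Ccl6 on chromosome 11, had 12.1 and 15.9 FPKM in mutants 1 and 2, against 17.8 and 14.7 FPKM in controls 1 and 2, and these ranges overlap.

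Ccl5, a T cell and monocyte attractant made in quantity by cytotoxic T cells and NK cells, showed the smallest p of all members. It had 47.2 and 63.8 FPKM in mutants 1 and 2, against 154 and 98.5 FPKM in controls 1 and 2. Both mutants were low and both controls high, with no overlap, and the mutant mean was 0.440 times the control mean (55.5 ± 11.7 FPKM in mutants and 126 ± 39.2 FPKM in controls; SD, n = 2 each). The log2 change was −1.16 (SE 0.25, 95% interval −1.74 to −0.58), and the limma adjusted p of 0.469 did not pass. It was −0.97 after rescaling. With a mutant library left out it was −0.94 (mutant 1) or −1.37 (mutant 2), and with a control left out it was −0.84 (control 1) or −1.48 (control 2). On mm9 the gene lies at chromosome 11, 83339281 to 83344020. In the authors' deposited table the mean normalized count of Ccl5 was 246 in mutants and 499 in controls, with an unadjusted p of 0.0291 and an adjusted p of 1.

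Xcl1, the lymphotactin gene of activated CD8 T cells and NK cells, had 0.980 and 2.87 FPKM in mutants 1 and 2, against 7.05 and 3.43 FPKM in controls 1 and 2. The order of the libraries was that of Ccl5, with 2 and 13 implied fragments in mutants and 31 and 17 in controls. The log2 change of −1.29 (SE 0.43, limma adjusted p = 0.825) was −0.69 without mutant 1 and −0.82 without control 1. Its receptor gene Xcr1, a mark of cross-presenting dendritic cells, had 0.673 and 1.15 FPKM in mutants 1 and 2, against 1.38 and 1.01 FPKM in controls 1 and 2, with overlapping groups. Beside these genes, the 18 tested T and NK cell markers summed to 92.01 and 91.6 FPKM in mutants 1 and 2, against 183 and 120.4 FPKM in controls 1 and 2. Of these, 10 were lower in both mutants than in both controls (10 of 17 without control 1), against 35.1% of all tested genes (49.1% without control 1), and none of the 18 was at 0 in any library. Cd8a, the CD8 co-receptor, had 1.88 and 2.29 FPKM in mutants 1 and 2, against 8.22 and 3.56 FPKM in controls 1 and 2. In whole tissue, fewer cells of a type and less RNA per cell cannot be told apart, and the part of T and NK cells in the values of Ccl5 and Xcl1 was not tested.

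The monocyte chemokines of the Ccl2 cluster on chromosome 11 behaved differently from one another. Ccl12, a Ccr2 ligand of the mouse, was the only tested member higher in both mutants, with 16.2 and 22.1 FPKM in mutants 1 and 2, against 11.4 and 14.1 FPKM in controls 1 and 2 (log2 change 0.56, SE 0.22, 95% interval 0.05 to 1.08, limma adjusted p = 0.825). It was 0.74 after rescaling, 0.34 without mutant 2 and 0.78 without mutant 1. Its neighbours Ccl2 and Ccl7, both monocyte chemoattractants, split the mutants. Ccl2 had 3.12 and 10.5 FPKM in mutants 1 and 2, against 7.68 and 5.43 FPKM in controls 1 and 2. Ccl7 had 3.88 and 8.96 FPKM in mutants 1 and 2, against 6.54 and 4.49 FPKM in controls 1 and 2. In both genes mutant 1 was the lowest and mutant 2 the highest library, so the groups overlap. Ccl11, eotaxin, which recruits eosinophils to the gut, had 19.4 and 27.8 FPKM in mutants 1 and 2, against 25.1 and 28.01 FPKM in controls 1 and 2 (95% interval of the log2 change −0.69 to 0.32). On mm9 Ccl12 lies at chromosome 11, 81915347 to 81916901 and Ccl2 at chromosome 11, 81849079 to 81850954.

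Ccl3 and Ccl4, the macrophage inflammatory proteins, were low. Ccl3 had 0.986 and 0.777 FPKM in mutants 1 and 2, against 1.602 and 1.01 FPKM in controls 1 and 2 from 4 and 7 implied fragments in mutants and 14 and 10 in controls. Ccl4 had 2.54 and 4.005 FPKM in mutants 1 and 2, against 6.64 and 1.96 FPKM in controls 1 and 2. Both mutants lay below both controls for Ccl3 and not for Ccl4, and neither change was large beside its error (log2 changes −0.37 and −0.18, SE 0.29 and 0.46). Ccl1 and Ccl24 stayed at or under 0.265 FPKM in every library and Ccl26 was listed at 0 in all 4, so none of these was tested.

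Among the genes listed as lymphoid tissue ligands (Cxcl12, Cxcl13, Ccl19, Ccl17 and Ccl22), all 5 tested had a negative log2 change (median −0.84, beside −0.17 for all genes). Ccl17 reached the minimum for testing through control 1, the library where it is highest, so its sign adds no support. In 4 of the 5, Ccl17 not among them, both mutants lay below both controls, or in 2 after rescaling, against 35.1% and 15.3% of all tested genes. Without control 1 the median of the 4 still tested was −0.24, beside −0.14 for all genes. Cxcl12, the stromal ligand of Cxcr4 that holds leukocytes and progenitors in tissue, had 31.5 and 48.9 FPKM in mutants 1 and 2, against 86.6 and 61.9 FPKM in controls 1 and 2. Controls were high and mutants low without overlap, and the log2 change was −0.89 (SE 0.26, 95% interval −1.48 to −0.30, limma adjusted p = 0.825). It was −0.71 after rescaling and lay between −1.21 and −0.58 with each library left out. In the authors' deposited table Cxcl12 had mean normalized counts of 1069.7 in mutants and 1757 in controls (unadjusted p = 0.0293, adjusted p = 1), and Ccl5 and Cxcl12 were the 2 members with an unadjusted p under 0.05 there. The gene lies at chromosome 6, 117118553 to 117131386 on mm9. The 8 fibroblast and smooth muscle markers summed to 861 and 1066 FPKM in mutants 1 and 2, against 1256 and 1133 FPKM in controls 1 and 2, and their part in the Cxcl12 values was not tested.

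The files split Cxcl12 into 3 RefSeq isoforms. The shortest, NM_021704 (1878 bases), carried 83.7% and 88.9% in mutants 1 and 2 and 88.8% and 86.6% in controls 1 and 2. Its level was 26.3 and 43.5 FPKM in mutants 1 and 2, against 76.97 and 53.7 FPKM in controls 1 and 2 (log2 change −0.92, SE 0.31, limma adjusted p = 0.853 over 16903 isoforms). The isoform NM_013655 (3173 bases) had 3.12 and 3.44 FPKM in mutants 1 and 2, against 6.78 and 4.96 FPKM in controls 1 and 2 (log2 change −0.74), and NM_001012477 (5670 bases) had 2.02 and 1.98 FPKM in mutants 1 and 2, against 2.896 and 3.31 FPKM in controls 1 and 2 (log2 change −0.53). All 3 were lower in mutants on average, and the main isoform held at least 83.7% of the gene in each library. Among isoforms 0.00592% passed the adjusted threshold, none of a chemokine or receptor. Of the other 6 members with several isoforms, the estimates for Ccl20 and Cxcl11 moved between near-identical isoforms from library to library: the 802-base isoform of Ccl20 took 100% in mutant 1 and 59.1% in mutant 2, against 48.8% in control 1, and was near 0 in control 2. Only the gene level is read for those.

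**Figure D2:**
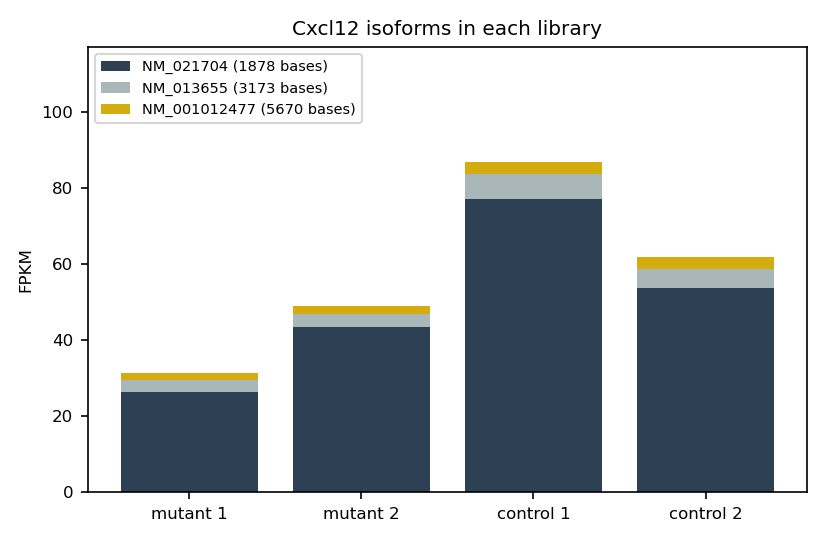
FPKM of the 3 RefSeq isoforms of Cxcl12 in each library, stacked (vertical axis in FPKM from 0). The shortest isoform makes up most of each bar, and both mutant bars are shorter than both control bars.

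Cxcl13, which builds B cell follicles by calling in cells with Cxcr5, had 21.6 and 25.7 FPKM in mutants 1 and 2, against 101 and 26.7 FPKM in controls 1 and 2. Control 1 was far above the other 3 libraries, which lay close together. The log2 change of −1.13 (SE 0.50) was −0.18 without control 1 and −2.08 without control 2. Cxcr5, its receptor on follicular B and T cells, had 0.594 and 0.348 FPKM in mutants 1 and 2, against 5.38 and 0.171 FPKM in controls 1 and 2, so that both mutants were above control 2 and below control 1. Ccr6, the Ccl20 receptor of B cells and lymphoid tissue inducer cells, had 0.141 and 0.437 FPKM in mutants 1 and 2, against 3.05 and 0.357 FPKM in controls 1 and 2. Cxcr5 and Ccr6 reached the minimum for testing through control 1, so their fitted changes (−1.04 and −1.17) are given as description.

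Ccr7, which takes T cells and dendritic cells to lymphoid tissue, had 0.891 and 0.765 FPKM in mutants 1 and 2, against 3.08 and 1.23 FPKM in controls 1 and 2 from 11 and 21 implied fragments in mutants and 82 and 37 in controls (log2 change −0.91, SE 0.36). It was −0.39 without control 1. Its ligand gene Ccl19 had 1.62 and 1.17 FPKM in mutants 1 and 2, against 4.42 and 1.81 FPKM in controls 1 and 2 (log2 change −0.84, and −0.30 without control 1). Ccl19 is the sum of 2 rows on chromosome 4 with the same transcript, between which reads cannot be split, and the authors' deposited table lists it at 0. Each row held 1.67 and 4.27 implied fragments in mutants 1 and 2, against 15.1 in control 1 and 6.54 or 7.24 in control 2. Cxcr4, the Cxcl12 receptor, had 3.21 and 2.65 FPKM in mutants 1 and 2, against 14.6 and 3.48 FPKM in controls 1 and 2 (log2 change −1.19, and −0.22 without control 1). In each of these genes control 1 was the highest library and control 2 lay near the mutants. The B cell transcription factor Pax5 had 0.143 and 0 FPKM in mutants 1 and 2, against 4.19 and 0.0589 FPKM in controls 1 and 2, and the 10 markers of follicle epithelium and lymphoid stroma summed to 69.2 and 85.8 FPKM in mutants 1 and 2, against 172 and 82.6 FPKM in controls 1 and 2. The largest of these 10 in control 1 was Mfge8, with 25.9 and 27.8 FPKM in mutants 1 and 2, against 91.1 and 32.8 FPKM in controls 1 and 2. The part of B cells and follicles in the values of these chemokine and receptor genes was not tested.

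**Figure D3:**
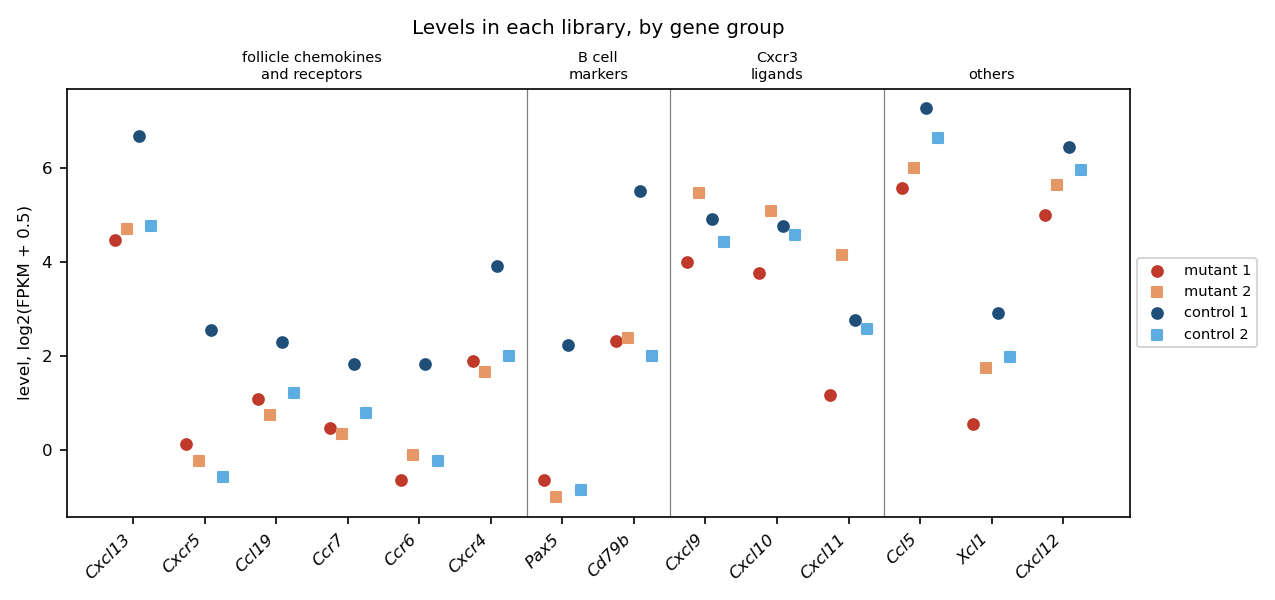
Levels in the 4 libraries as log2(FPKM + 0.5) for follicle chemokines and receptors, B cell markers, Cxcr3 ligands and 3 further ligands. Control 1 stands above the other 3 libraries in the first 2 groups, mutant 1 is lowest and mutant 2 highest for the Cxcr3 ligands, and both mutants lie below both controls for Ccl5, Xcl1 and Cxcl12.

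Ccl17 and Ccl22, dendritic cell ligands of Ccr4, were low. Ccl22 had 1.34 and 0.964 FPKM in mutants 1 and 2, against 3.03 and 1.36 FPKM in controls 1 and 2 (log2 change −0.64, SE 0.34, and −0.18 without control 1). Ccl17 had 0.470 and 0.635 FPKM in mutants 1 and 2, against 1.31 and 0.387 FPKM in controls 1 and 2 from 1 to 6 implied fragments. Without control 1, Ccl17 fell under the minimum for testing. The receptor gene Ccr4, of Th2 and regulatory T cells, had 0.832 and 1.52 FPKM in mutants 1 and 2, against 1.16 and 0.434 FPKM in controls 1 and 2, with mutant 2 the highest and control 2 the lowest.

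Of the ligands made by epithelium and mucosa, Cxcl14, a chemokine of epithelium and stroma, separated the groups: it had 9.73 and 12.03 FPKM in mutants 1 and 2, against 26.7 and 16.3 FPKM in controls 1 and 2. The mutant mean was 0.506 times the control mean (10.9 ± 1.62 FPKM in mutants and 21.5 ± 7.404 FPKM in controls; SD, n = 2 each), with a log2 change of −0.92 (SE 0.26, 95% interval −1.52 to −0.32, limma adjusted p = 0.825). It was −0.57 without control 1 and −0.74 after rescaling. Ccl25, which draws gut-homing T cells with Ccr9 and is best known from the small intestine, had 4.504 and 4.17 FPKM in mutants 1 and 2, against 6.1998 and 4.57 FPKM in controls 1 and 2 (95% interval of the log2 change −0.80 to 0.26). Both mutants lay below both controls for Ccl25 too, by a smaller margin, and the groups overlapped after rescaling. Ccl20, the ligand of Ccr6 made by the epithelium over follicles, had 3.16 and 4.14 FPKM in mutants 1 and 2, against 6.63 and 3.199 FPKM in controls 1 and 2, where control 1 alone was high (log2 change −0.32, and 0.16 without control 1).

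Cx3cl1, fractalkine, a membrane-bound ligand of epithelium and endothelium, had 18.9 and 15.2 FPKM in mutants 1 and 2, against 13.6 and 21.6 FPKM in controls 1 and 2. Cxcl16, the other membrane-bound ligand, had 14.2 and 21.3 FPKM in mutants 1 and 2, against 20.6 and 17.3 FPKM in controls 1 and 2. Both groups overlap in each, with 95% intervals of the log2 change from −0.60 to 0.56 and from −0.65 to 0.43. Their receptor genes differed in pattern. Cx3cr1, of resident macrophages, had 3.69 and 8.08 FPKM in mutants 1 and 2, against 9.01 and 6.98 FPKM in controls 1 and 2. Cxcr6, of intraepithelial and NKT lymphocytes, had 4.25 and 4.01 FPKM in mutants 1 and 2, against 8.36 and 5.03 FPKM in controls 1 and 2 (log2 change −0.60, SE 0.26, and −0.26 without control 1). For Cx3cr1 only mutant 1 was low, and the change was 0.02 without it. Cxcl17, a mucosal chemokine, was listed at 0.520 and 0.234 FPKM in mutants 1 and 2, from 2 implied fragments in each, and at 0 in both controls. It was under the minimum for testing.

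Ccl28 is the colon epithelial ligand known for drawing IgA plasma cells that carry Ccr10, and it was listed at 0 FPKM in all 4 libraries. Its row lies on chr13_random, 362539 to 393978 on mm9, a sequence not placed on the chromosome. All 143 gene rows on sequences of that kind were at 0 in all 4 libraries, including both rows of Hmgcs1, a cholesterol synthesis enzyme that cells use widely, against 12.1% of the 23556 other rows. The 0 of Ccl28 is therefore not read as a level. Ccr10 had 2.64 and 2.29 FPKM in mutants 1 and 2, against 5.39 and 2.68 FPKM in controls 1 and 2 (log2 change −0.55, SE 0.31, and −0.10 without control 1), and control 1 was again the highest, as it was for the plasma cell marker Igj, with 611 and 508 FPKM in mutants 1 and 2, against 1209 and 532 FPKM in controls 1 and 2.

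The interferon-induced ligands of Cxcr3, which recruit Th1 and cytotoxic T cells, did not separate the groups but split the mutants. Cxcl9 had 15.4 and 44.01 FPKM in mutants 1 and 2, against 29.6 and 20.9 FPKM in controls 1 and 2. Cxcl10 had 13.2 and 33.3 FPKM in mutants 1 and 2, against 26.8 and 23.2 FPKM in controls 1 and 2. Cxcl11 had 1.75 and 17.3 FPKM in mutants 1 and 2, against 6.28 and 5.47 FPKM in controls 1 and 2. In each, mutant 1 was the lowest and mutant 2 the highest library, with the controls between them. The log2 changes were 0.07, −0.24 and −0.01 with 95% intervals of −0.90 to 1.04, −1.09 to 0.61 and −1.76 to 1.74. Without mutant 1 all 3 were above 0 (0.81, 0.41 and 1.48), and without mutant 2 all 3 were below 0 (−0.67, −0.90 and −1.50). Irf1, an interferon-induced transcription factor, also had mutant 1 lowest and mutant 2 highest, with 153 and 256 FPKM in mutants 1 and 2, against 206 and 222 FPKM in controls 1 and 2. Irf7, another such factor, did not, with 187 and 144 FPKM in mutants 1 and 2, against 132 and 209.8 FPKM in controls 1 and 2. The receptor gene Cxcr3 had 2.66 and 3.27 FPKM in mutants 1 and 2, against 6.03 and 3.53 FPKM in controls 1 and 2, both mutants lower, with a log2 change of −0.57 (SE 0.28), and −0.23 without control 1.

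The 250 bases before the start of Cxcl10 and Cxcl9, alike in their order of libraries, and of Cxcl12 and Cxcl14, the ligands with the smallest p after Ccl5, are shown from RefSeq (GRCm38.p6), 5′ to 3′ on the gene's strand. Capitals mark matches to the core of the interferon-stimulated response element and to a form of the kappa B site, searched on both strands. The first is GAAA, any 2 bases and GAAA, and the second is GGGA, any base, TT, any base and CC.
Cxcl10 (chr5:92348890-92349139, - strand): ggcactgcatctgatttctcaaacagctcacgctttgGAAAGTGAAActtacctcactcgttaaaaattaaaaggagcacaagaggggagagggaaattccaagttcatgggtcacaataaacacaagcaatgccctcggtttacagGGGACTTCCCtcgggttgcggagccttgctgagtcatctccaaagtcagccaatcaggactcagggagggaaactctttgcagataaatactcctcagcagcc
Cxcl9 (chr5:92328080-92328329, - strand): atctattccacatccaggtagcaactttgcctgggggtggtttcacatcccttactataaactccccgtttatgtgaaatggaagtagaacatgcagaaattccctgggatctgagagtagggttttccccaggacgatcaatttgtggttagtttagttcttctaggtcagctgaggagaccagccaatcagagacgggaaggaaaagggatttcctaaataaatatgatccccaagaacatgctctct
Cxcl12 (chr6:117168285-117168534, + strand): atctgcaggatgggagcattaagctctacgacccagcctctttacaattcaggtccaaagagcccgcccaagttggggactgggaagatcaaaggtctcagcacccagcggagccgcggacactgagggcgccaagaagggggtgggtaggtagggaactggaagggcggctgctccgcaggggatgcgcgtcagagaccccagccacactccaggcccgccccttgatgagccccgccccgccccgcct
Cxcl14 (chr13:56296552-56296801, - strand): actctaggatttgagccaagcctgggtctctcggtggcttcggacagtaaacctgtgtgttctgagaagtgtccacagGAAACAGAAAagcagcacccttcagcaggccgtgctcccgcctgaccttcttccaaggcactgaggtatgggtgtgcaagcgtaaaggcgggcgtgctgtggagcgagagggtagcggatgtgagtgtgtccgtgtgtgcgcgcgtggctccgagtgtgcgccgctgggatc
Cxcl10 held 1 match to each motif, Cxcl14 held 1 match to the first, and the windows of Cxcl9 and Cxcl12 held none. No matches to the 2 motifs overlapped. Of 38 members with a window, 3 matched the first motif (Cxcl10, Ccl19 and Cxcl14) and 6 the second (Cxcl1, Cxcl2, Cxcl3, Cxcl10, Ccr3 and Ccr6). Over all 32851 windows of that length the shares were 2.98% and 0.980%. Cxcl1, Cxcl2 and Cxcl3, close relatives on chromosome 5, shared the same letters, GGGAATTTCC. No window was used here for Ccl2, Ccl4, Ccl5, Ccl7, Ccl11, Ccl24, Ccl26, Cxcl5, Cxcl11, Cxcl16, Cxcl17, Ccr7, Ccr10 or Cxcr5. A match is a description of these letters and not a bound site.

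The ligands of Cxcr2, which recruit neutrophils, were low. Cxcl1 had 0.580 and 1.57 FPKM in mutants 1 and 2, against 1.44 and 0.955 FPKM in controls 1 and 2. Cxcl2 had 0.327 and 1.18 FPKM in mutants 1 and 2, against 0.304 and 0.337 FPKM in controls 1 and 2. Cxcl5 had 0 and 0.846 FPKM in mutants 1 and 2, against 1.102 and 0.163 FPKM in controls 1 and 2. Mutant 2 was the highest library for Cxcl1 and Cxcl2 and control 1 for Cxcl5, and none of the 3 separated the groups (log2 changes −0.17, 0.52 and −0.33, SE 0.36, 0.38 and 0.55). Cxcl5 fell under the minimum for testing without control 1, without mutant 2 and after median ratio rescaling, and Cxcl2 without mutant 2. The fitted changes of Cxcl5 and Cxcl2 are therefore given as description. Cxcl3 and Cxcl15 stayed at or under 0.180 FPKM. The neutrophil receptor genes were as low: Cxcr1 was listed at 0 in all libraries, and Cxcr2 was at 0.101 and 0 FPKM in mutants 1 and 2 and at 0 and 0.0208 FPKM in controls 1 and 2. The 6 neutrophil markers summed to 1.84 and 4.53 FPKM in mutants 1 and 2, against 10.2 and 3.43 FPKM in controls 1 and 2.

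Receptor genes of monocytes and macrophages were among the more abundant receptors, and their groups overlapped. Ccr2, which brings monocytes into the gut, had 4.02 and 8.91 FPKM in mutants 1 and 2, against 10.2 and 5.76 FPKM in controls 1 and 2. Ccr1, of myeloid cells, had 4.31 and 6.77 FPKM in mutants 1 and 2, against 6.18 and 4.67 FPKM in controls 1 and 2. For both, mutant 1 was the lowest library, while mutant 2 was the highest for Ccr1. Their log2 changes were −0.33 and 0.01 with 95% intervals of −1.20 to 0.54 and −0.60 to 0.62. The 16 macrophage and dendritic cell markers summed to 541 and 905 FPKM in mutants 1 and 2, against 1186 and 784 FPKM in controls 1 and 2, with mutant 1 again the lowest. Cxcr7, a scavenging receptor for Cxcl12 now named Ackr3, had 4.52 and 8.01 FPKM in mutants 1 and 2, against 8.09 and 7.37 FPKM in controls 1 and 2, and its change was −0.33, or 0.05 without mutant 1. Ccr9, the Ccl25 receptor, had 0.800 and 0.751 FPKM in mutants 1 and 2, against 0.998 and 0.886 FPKM in controls 1 and 2, lower in mutants by a log2 change of −0.18 that did not exceed its error (SE 0.27). The eosinophil receptor gene Ccr3 had 0.187 and 0.504 FPKM in mutants 1 and 2, against 0.520 and 0.576 FPKM in controls 1 and 2, and Ccr8, of skin-homing and regulatory T cells, 0.302 and 0.0680 FPKM in mutants 1 and 2, against 0.281 and 0 FPKM in controls 1 and 2. Both were under the minimum for testing.

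**Figure D4:**
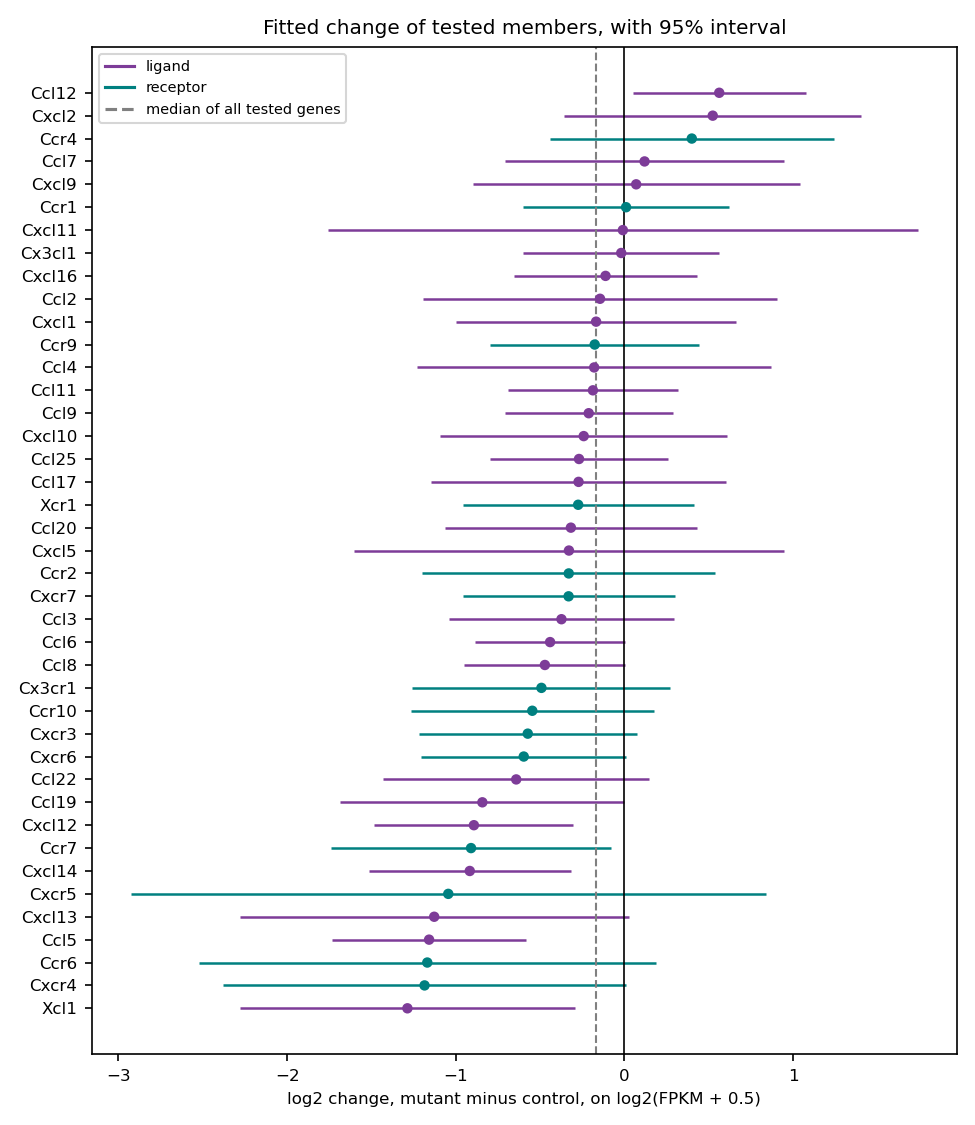
Fitted log2 change (mutant minus control, on log2(FPKM + 0.5)) of the tested members (all but 1) with its 95% interval, ligands and receptors in different colours. The dashed line is the median of all tested genes; 5 intervals below 0 (Ccl5, Cxcl12, Cxcl14, Xcl1 and Ccr7) stand clear of 0, that of Ccl19 ends just below it, and that of Ccl12 lies above it.

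Genes that act around chemokines were taken from 4 lists, and none of their tested members passed an adjusted p of 0.05. Among 32 genes of receptor signalling, all had a negative log2 change (median −0.28), and 14 were lower in both mutants than in both controls, or 6 lower and 1 higher after rescaling, beside 35.1% of all tested genes lower as deposited and 15.3% lower and 15.2% higher after rescaling. Rgs1, which damps chemokine receptor signalling in lymphocytes, had 7.02 and 9.82 FPKM in mutants 1 and 2, against 18.2 and 13.9 FPKM in controls 1 and 2 (log2 change −0.90, SE 0.24). Rassf5, which links these receptors to integrins, had 2.01 and 3.34 FPKM in mutants 1 and 2, against 7.18 and 3.53 FPKM in controls 1 and 2. Of 33 cytokines and factors that induce chemokines, 12 were lower and 2 higher in both mutants, or 7 lower and 3 higher after rescaling (median log2 change as deposited −0.22). Ltb, the lymphotoxin beta gene that sustains lymphoid follicles, had 7.27 and 6.69 FPKM in mutants 1 and 2, against 23.8 and 8.51 FPKM in controls 1 and 2, with control 1 high as for Cxcl13, and the alarmin gene Il33 had 2.15 and 2.68 FPKM in mutants 1 and 2, against 4.58 and 3.31 FPKM in controls 1 and 2. Of 17 proteases and glycan carriers, 7 were lower and 1 higher in both mutants as deposited (median −0.18). After rescaling 2 were lower and 5 higher. Over all tested genes the shares also moved, from 35.1% lower and 3.39% higher as deposited to 15.3% and 15.2% after rescaling. Mmp7, a matrix protease of this list, had 29.3 and 31.7 FPKM in mutants 1 and 2, against 67.96 and 44.5 FPKM in controls 1 and 2 (log2 change −0.84, SE 0.23). Of 7 tested atypical and related receptors and ligands, 1 was lower, Rarres2, the chemerin gene, with 71.2 and 84.9 FPKM in mutants 1 and 2, against 131 and 94.3 FPKM in controls 1 and 2, and 1 was higher, the same numbers as after rescaling. The 4 genes higher in both mutants as deposited, given because they are so few and outside the rule for naming, were Ccbp2, Tslp, Tlr4 and Hspg2. The list medians lay between −0.28 and −0.10, beside −0.17 for all tested genes.

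**Figure D5:**
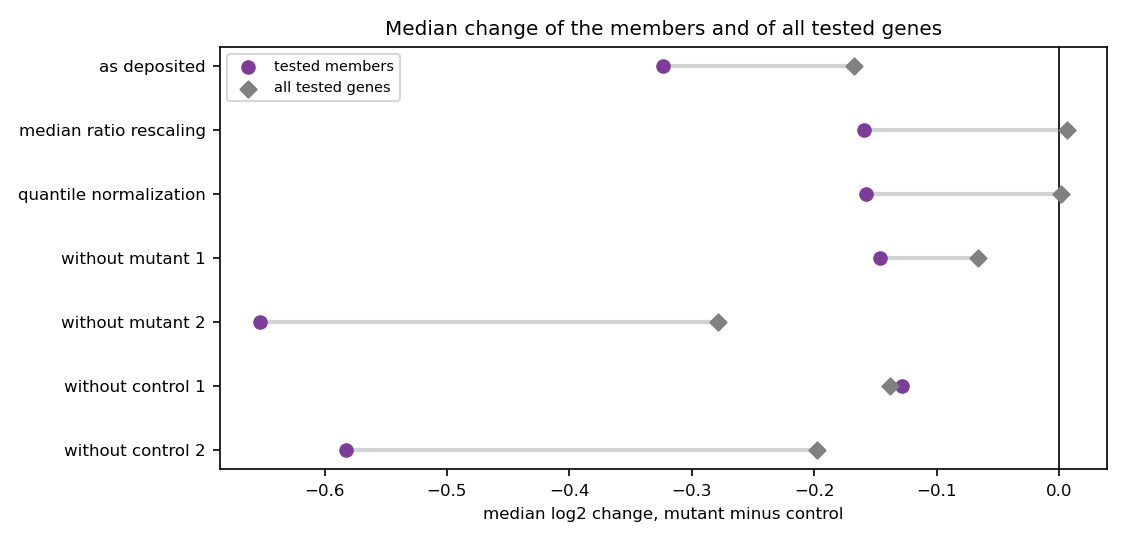
Median log2 change (mutant minus control) of the tested members (circles) and of all tested genes (diamonds) as deposited, after 2 kinds of rescaling and with each library left out. The members lie left of all genes in each setting except without control 1, where they nearly coincide.

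The authors' deposited table gave a p-value for 50 of the 53 members, and none had an adjusted p under 0.05, against 0.0384% of the 20834 genes with one. Ccl5 and Cxcl12 were the members with an unadjusted p under 0.05, against 0.432% of all genes in that table. For Cxcl14, the authors' deposited table gives a log2 fold of −0.82 (p = 0.0813), and for Ccl12 0.78 (p = 0.185).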

How the data were processed

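RNA was measured in 2 mutant and 2 control colon libraries, with a TruSeq RNA library kit, per the labels' protocols. Tools listed by the submitters' processing notes are TopHat, Cufflinks, DESeq and bcl2fastq 1.8.4, and the build is mm9. The authors deposited, per the file headers, FPKM with a 95% interval for 23699 gene rows and 30028 isoforms, with isoform lengths and the coverage signal. The authors' deposited table gives mean normalized counts per group (a signal), the fold ratio between the genotypes (mutant over control), a log2 fold change, p-values and adjusted p-values.

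Here, 306 rows with a status other than OK were left out, no member among them. Rows of 1 symbol were summed, and 13997 genes averaging 0.5 FPKM or more entered limma 3.58.1 (R 4.3.3, variance trend) on the log2(FPKM + 0.5) scale. Fold changes on this scale understate low genes. The fit was tested on simulated data with independent spread per gene. That simulation did not hold the general shift between groups, the lower depth of mutant 1 or the B lymphocyte transcripts of control 1. Implied fragments come from the width of the authors' interval and cover counting error only. The implied numbers lay within 0.05 of a whole number for 87.3% to 88.7% of isoforms under 50 fragments, and depth was compared by coverage per FPKM. Coordinates are mm9, counted from 1. Alternatives covered pseudocount, filter, scaling, variance model, replicate term, status, each library left out and the authors' table.

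The genes and lists were chosen with earlier results of these data known. The counts cover every member, and 1 receptor gene is not reported here by name. Full statistics go to the members with the 12 smallest p-values, the 6 most abundant ligands and the 6 most abundant receptors, and the 10 largest changes without overlap. From other lists, genes came from the 3 smallest p-values and the 2 highest levels. Nkx2-2 is the target, and Hmgcs1 was named after its values were seen.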

Additional observations from a re-analysis of the deposited data

How the results depend on the processing

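No member passed an adjusted p of 0.05 under the pseudocounts, filters, scalings, variance models and row choices tried, nor in the authors' deposited table. The exceptions were 9 members without control 2, where control 1 is a lone sample assumed to vary like the mutants, and 6 with the replicate number as a block. That block gave 195 calls over all genes, against 9. No pairing by replicate number is given in the labels. Same-numbered libraries deviated with r = −0.00217 over 13997 genes, which with 2 libraries per group cannot show whether they were handled together. Counts over members with a library left out ran from 0 to 9 for calls. All-gene calls were 2 with no filter, 3 after median ratio rescaling, 2 after quantile normalization and 8 to 356 with a library left out. Members below the controls numbered 9 after median ratio rescaling and 10 after quantile normalization, against 17, and 18 to 34 with a library left out. The all-gene shares below moved too, to 15.3% and 15.7%, against 35.1%, and to 42.6% to 73.5% with a library left out. Members above numbered 3 with no filter and 2 after median ratio rescaling, against 1, and 1 to 12 with a library left out. The all-gene shares above were 5.92% and 15.2%, against 3.39%, and 9.3% to 21.2% with a library left out. The members' median minus that of all genes ran from −0.38 without control 2 to 0.00976 without control 1, where it turned, against −0.16, a comparison chosen after seeing the data. The sign turned with at least 1 library left out for 18 of the 42 tested members. Among the 18 with full statistics, those whose sign turned, with their ranges, were Ccr1 −0.29 to 0.31, Ccr2 −0.86 to 0.20, Cx3cr1 −1.01 to 0.0240, Cxcl9 −0.67 to 0.81 and Cxcr7 −0.71 to 0.0491. Ccr1 and Cxcl9 turned without control 2 (−0.18 and −0.18) and without mutant 2, Ccr2 without control 1 (0.0586) and without mutant 1, and Cx3cr1 and Cxcr7 without mutant 1. The cause was not tested. Of 251 values of 18 members over the alternatives, 231 kept their direction and side of the threshold. Changes of filter, variance model, replicate term or row status left the log2 change of these members identical, so its direction could not turn there. Low depth in mutant 1 limits genes under a few fragments.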

Other observations

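Some chemokine genes have names outside the rule. Ccl21c, a copy of the Ccr7 ligand gene of lymphatic vessels and lymphoid stroma, had 13.8 and 13.3 FPKM in mutants 1 and 2, against 38.1 and 19.9 FPKM in controls 1 and 2 (log2 change −0.998, SE 0.29, limma adjusted p = 0.825). Both mutants lay below both controls, and the Ccl21 copies are near-identical, so reads cannot be assigned among them with certainty. Ccl27a, a Ccr10 ligand, had 1.97 and 1.97 FPKM in mutants 1 and 2, against 5.199 and 2.37 FPKM in controls 1 and 2, where control 1 was the highest library. Pf4, the platelet chemokine, had 18.9 and 18.9 FPKM in mutants 1 and 2, against 22.8 and 23.7 FPKM in controls 1 and 2 (log2 change −0.29, SE 0.18). Of the 5 tested genes of this kind, 3 were lower in both mutants, against 35.1% of all tested genes. After median ratio rescaling 1 was lower and 1 higher, against 15.3% and 15.2%, and none passed an adjusted p of 0.05.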
